A study of Mus musculus with 36 samples.

Results

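The AP-1 and ATF family genes described here are Fos, Fosb, Fosl2, Jun, Junb, Jund, Atf3, Batf and Maff, 9 transcription factor genes of the basic leucine zipper class. They were chosen by name, and each matched exactly 1 row in all 4 deposited expression tables, which list 32940 genes for the sorted subsets and 56923 genes for each of the other tables. The 36 RNA-seq libraries come from natural killer (NK) cells of mice, in 12 groups of 3 biological replicates, and expression is given as TPM, transcript abundance corrected for gene length and library, so that levels of different genes can be compared. Mature splenic NK cells (CD27-, CD11b+) were sorted into TP cells, which carry the inhibitory receptors Ly49C, Ly49I and NKG2A, SP cells, which carry Ly49I alone of these, and TN cells, which carry none. Each subset was taken from wild-type (WT) C57BL/6 mice, which are B2m+/+, and from B2m-/- mice (KO), which lack the light chain of MHC class I and therefore most ligands of these receptors. In culture, WT splenocytes received vehicle or the calcium ionophore ionomycin for 22 h before the NK cells were purified. In a separate culture, NK cells came from WT splenocytes kept 48 h in medium or on plates coated with antibodies to a pair of activating receptors, either NKp46 plus NKG2D (the NKG2D pair) or NKp46 plus DNAM-1 (the DNAM-1 pair). Cells other than NK cells were thus present during both cultures. The last group was CD27-, CD11b+ NK cells from tumours that C57BL/6 mice carried 10 days after subcutaneous injection of B2m-/- MC38 cells, a mouse colon carcinoma line; no control group for it was analysed here. Age and sex of the mice are not given in the sources used here.

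AP-1 is a dimer. FOS proteins (Fos, Fosb, Fosl2) bind DNA only with a partner, usually a JUN protein (Jun, Junb, Jund), whereas JUN proteins also pair with each other. In lymphocytes AP-1 is induced through MAP kinases and binds beside NFAT at cytokine genes, and the transcripts of Fos, Fosb, Jun, Junb, Atf3 and Maff are typical immediate-early or stress-induced messages that decay within a short time. Batf pairs with JUN proteins and binds together with IRF4, Atf3 is a stress-responsive repressor or activator, and Maff is a small MAF protein without an activation domain of its own.

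The promoters of 4 members are shown because the culture results below turn on 3 of them and because the Jun promoter carries the only AP-1-like octamer among these 4. Each is the 250 bases before the annotated start in RefSeq on mouse build GRCm38.p6, read 5′ to 3′ on the gene's own strand; the expression tables were made on another build, so these positions describe only the promoter table. Capitals mark TGACG (the core of the cyclic AMP response element), TGACATCA (the variant AP-1 site known from the Jun promoter), TATAAA and kappaB sites.
Fos, chr12:85473640-85473889, plus strand: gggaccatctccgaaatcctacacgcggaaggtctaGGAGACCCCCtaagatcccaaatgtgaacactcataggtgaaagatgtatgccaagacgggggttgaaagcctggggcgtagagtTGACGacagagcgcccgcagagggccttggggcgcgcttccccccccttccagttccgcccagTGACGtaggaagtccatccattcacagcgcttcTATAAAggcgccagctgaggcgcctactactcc
Junb, chr8:84978749-84978998, minus strand: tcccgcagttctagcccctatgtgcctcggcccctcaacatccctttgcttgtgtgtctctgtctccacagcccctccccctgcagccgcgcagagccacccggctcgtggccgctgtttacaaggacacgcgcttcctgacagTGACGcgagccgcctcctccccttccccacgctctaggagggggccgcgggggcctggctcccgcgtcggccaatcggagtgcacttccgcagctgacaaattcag
Fosl2, chr5:32136222-32136471, plus strand: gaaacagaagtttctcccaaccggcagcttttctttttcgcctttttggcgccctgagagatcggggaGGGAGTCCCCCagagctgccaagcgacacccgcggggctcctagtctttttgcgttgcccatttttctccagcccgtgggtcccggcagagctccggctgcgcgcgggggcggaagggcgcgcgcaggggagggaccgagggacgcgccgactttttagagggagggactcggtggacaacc
Jun, chr4:95052223-95052472, minus strand: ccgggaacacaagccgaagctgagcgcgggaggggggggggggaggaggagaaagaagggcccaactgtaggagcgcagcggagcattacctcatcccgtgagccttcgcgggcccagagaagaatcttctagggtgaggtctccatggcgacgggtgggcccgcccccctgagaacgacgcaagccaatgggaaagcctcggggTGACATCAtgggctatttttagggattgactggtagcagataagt

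Motifs were searched on both strands in windows of 250 bases before and 50 bases from the start. All 9 members had a window (11 windows, since Maff has several starts), out of 32851 windows in the table. TGACG was present for 6 of the 9 members (Fos, Fosb, Junb, Atf3, Batf and Maff) against 20.8% of all windows; it overlaps the full element TGACGTCA, which was present only for Maff and in 1.79% of all windows. In Fos, TGACG lies at positions -129 to -125 and -66 to -62, and TATAAA at -33 to -28, with the annotated start as position 0. In Junb, TGACG lies at -106 to -102. TGACATCA lies at -45 to -38 in Jun and was also present in a window of Maff, against 3.62% of all windows. KappaB sites were present for Fos, Fosb, Fosl2 and Maff, against 19.5% of all windows; those of Fosl2 overlap each other. Neither TGAGTCA nor its reverse TGACTCA, the consensus AP-1 site, was present for any member, against 5.2% of all windows. No CArG box, the element bound by serum response factor, was found for any member, against 1.63% of all windows. These are matches of letters in a short window and show no binding.

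The NK markers Ncr1, Klrb1c, Klrk1, Eomes, Tbx21, Prf1, Gzma, Gzmb and Itgam were detected in every group. B2m ran from 2915 to 3420 TPM in the WT subsets and from 73.9 to 128 TPM in the KO subsets. Replicates of a group correlated across genes (log2 values) with r of at least 0.904 for the sorted cells, 0.804 for the ionomycin culture, 0.857 for the antibody culture and 0.808 for the tumours. Sequencing depth cannot be read from TPM, and the spread over replicates is the only measure of precision here. In the antibody experiment the treatment in the sample title differed from that in the named table column for 6 of 9 samples; the columns were followed, and values by title are given beside the called results. The labels of the tumour samples also disagree in part: the column names contain B2MKO and SP, whereas the titles attach B2m to the tumour and give the cells as CD27-CD11b+, and the genotype label is WT. Titles and genotype label were followed, and whether these libraries hold SP cells or cells of B2m-/- hosts was not settled by the labels; B2m stood at 3929 to 5196 TPM in them. The vehicle libraries were uneven: Ifng, the interferon gamma gene, stood at 27588 TPM in vehicle replicate 1, at 2522 in replicate 2 and at 82.4 in replicate 3.

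In sorted splenic NK cells the family was carried by Jund, Junb, Fosl2 and Batf, and the remaining 5 members were low. Jund, a JUN gene that most cells express constitutively, had a median of 188 TPM over the 18 libraries (range 138 to 240). Junb had a median of 145 TPM (107 to 167), Fosl2, which encodes FRA-2, 37.3 TPM (30.7 to 58.2), and Batf 35.4 TPM (24.2 to 46.2). Jun stood at 6.98 TPM (2.84 to 11.3), Fos at 3.48 TPM (0.14 to 8.30) and Atf3 at 1.29 TPM (0 to 4.23). Fosb (0 to 3.10 TPM) and Maff (0 to 2.61 TPM) averaged under 1 TPM and were left out of the test by the filter on low values, so 7 of the 9 members were tested there. The highest library exceeded the lowest by 1.56-fold for Junb, 1.73-fold for Jund, 1.9-fold for Fosl2 and 1.91-fold for Batf, so that the abundant members were even across the 18 libraries.

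**Figure D1:**
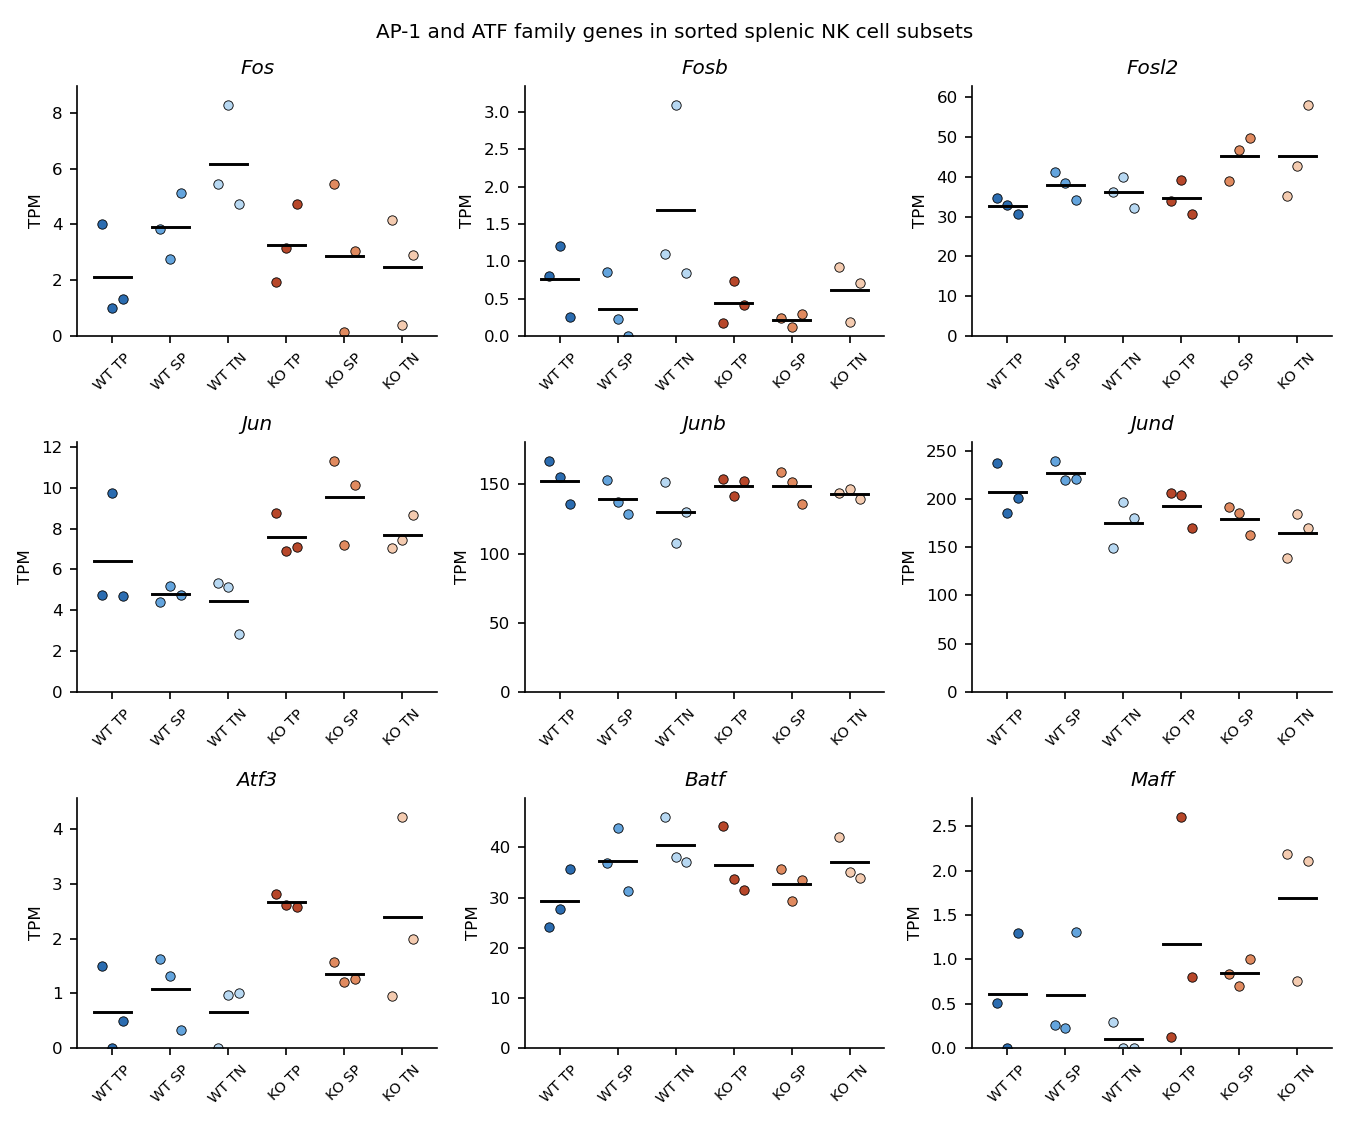
Each panel plots 1 gene, with TPM on a linear axis from 0 and the 6 sorted groups along the x axis; points are libraries, from replicate 1 at the left to 3 at the right, and bars are means. Jund and Junb sit at 107 TPM or more in all 18 libraries, whereas Fos, Fosb, Atf3 and Maff stay at 8.30 TPM or less.

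No member passed the limma test between subsets in either genotype. Fos had the largest log2 change among the 7 tested members between WT subsets. It stood at 4.01, 1.00 and 1.32 TPM in TP cells, 3.82, 2.75 and 5.14 TPM in SP cells, and 5.44, 8.30 and 4.73 TPM in TN cells. All 3 TN libraries were above all 3 TP libraries, while SP overlapped both. The log2 change from TP to TN was 1.29 (SE 0.609; limma adjusted p = 0.396). Batf stood at 24.2, 27.8 and 35.8 TPM in WT TP cells and at 46.2, 38.1 and 37.0 TPM in WT TN cells, again without overlap, and its log2 change was 0.46 (SE 0.183; limma adjusted p = 0.285). Jund ran the other way: it stood at 239.8, 219 and 220.4 TPM in WT SP cells and at 149, 196 and 180.3 TPM in WT TN cells (log2 change -0.38, SE 0.131; limma adjusted p = 0.241). These groups did not overlap either, but none of the 3 differences passed after adjustment over the 12018 genes tested. Groups without overlap are common: 14.6% of all tested genes had none between WT TN and TP, and 11.4% between WT TN and SP.

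Further differences had an unadjusted p between 0.05 and 0.1. Between WT TN and TP cells the log2 change was -0.24 for Junb (limma adjusted p = 0.416) and -0.25 for Jund (limma adjusted p = 0.47). From WT TP to SP cells the log2 change of Batf was 0.35 (limma adjusted p = 0.672). Between KO TN and TP cells the log2 change was 0.36 for Fosl2 (limma adjusted p = 0.788) and -0.24 for Jund (limma adjusted p = 0.856). The interaction of genotype with the TN to TP contrast was -1.74 for Fos (limma adjusted p = 0.8), and that with the SP to TP contrast was -0.49 for Batf (limma adjusted p = 1). None of these was called. Beside the WT TN values, summed B and plasma cell markers ran from 280 to 335 TPM in WT TN libraries and from 163 to 191 TPM in WT TP and SP libraries, and summed NK markers from 16360 to 17356 TPM against 18256 to 20057 TPM; their part was not tested.

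Counted by comparison, 0 of 7 tested members were called by limma between WT TN and TP (2 at an unadjusted p under 0.05), where 1.31% of all tested genes were called. Between WT SP and TP the count was 0 (0 unadjusted) against 0.191% of all tested genes. Between WT TN and SP it was 0 (1 unadjusted) against 0.383%. In the KO, limma called 0 members between TN and TP (0 unadjusted) against 0.524% of all tested genes. Between KO SP and TP the count was 0 (1 unadjusted, Fosl2) against 0.2%, and between KO TN and SP it was 0 (0 unadjusted) against 0.0416%. With so few genes called in total, these counts are near the background. The difference between the genotypes in the TN to TP contrast was called for 0 members (0 unadjusted) against 0.025% of all tested genes, and that in the SP to TP contrast for 0 members (0 unadjusted) against 0.0166%. The median log2 change of the 7 members between WT TN and TP was 0.03, beside -0.01 over all tested genes.

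Fosl2 carried the KO subset difference with the smallest unadjusted p. It stood at 34.0, 39.3 and 30.7 TPM in KO TP cells, 39.0, 46.8 and 49.8 TPM in KO SP cells and 35.2, 42.6 and 58.2 TPM in KO TN cells. SP and TP overlapped by a narrow margin (39.0 against 39.3 TPM), and the log2 change from TP to SP was 0.37 (SE 0.173; limma adjusted p = 1). The KO TP libraries also held neutrophil marker RNA, with a sum of 47.2 to 173 TPM over the 6 markers S100a8, S100a9, Ngp, Camp, Ly6g and Retnlg, all 6 detected, whereas no other sorted library exceeded 3.16 TPM. Their summed B and plasma cell markers (7 of 7 detected) ran from 391 to 668 TPM, against 163 to 335 TPM in the other sorted groups, and their summed macrophage markers (6 of 6 detected) from 23.4 to 54.5 TPM against at most 14.6 TPM. The part of these cells in the KO TP values was not tested. In bulk RNA, moreover, a smaller share of cells of a type and less RNA per cell cannot be told apart.

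Loss of B2m was accompanied by no called change in the family. Jun, the founding JUN protein and target of JNK kinases, had a higher mean in the KO in each subset, as did Fosl2 and Atf3. It stood at 4.39, 5.20 and 4.76 TPM in WT SP cells and at 11.3, 7.21 and 10.1 TPM in KO SP cells, without overlap (log2 change 0.85, SE 0.303; limma adjusted p = 0.24). In TN cells it stood at 5.32, 5.14 and 2.84 TPM in WT and at 7.03, 7.42 and 8.67 TPM in KO, again without overlap (log2 change 0.71, SE 0.303; limma adjusted p = 0.404). In TP cells the genotypes overlapped, since WT replicate 2 stood at 9.74 TPM and the KO libraries at 8.74, 6.92 and 7.11 TPM. Of all tested genes, 18.9% were without overlap between the genotypes in SP cells and 13.7% in TN cells. Over all 9 libraries of a genotype Jun ran from 2.84 to 9.74 TPM in WT and from 6.92 to 11.3 TPM in KO.

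Atf3 was also low but higher in mean in KO cells. It stood at 1.5, 0 and 0.49 TPM in WT TP cells and at 2.81, 2.62 and 2.58 TPM in KO TP cells, which did not overlap (log2 change 1.24, SE 0.496; limma adjusted p = 0.315). Between these groups 18.3% of all tested genes were without overlap. In TN cells the log2 change of Atf3 was 0.98 (limma adjusted p = 0.513). The KO TP libraries are those with neutrophil, B cell and macrophage marker RNA, whose part in this value was not tested. Fos in TN cells pointed the other way: it stood at 5.44, 8.30 and 4.73 TPM in WT and at 4.17, 0.38 and 2.91 TPM in KO (log2 change -1.21, SE 0.609; limma adjusted p = 0.513), without overlap. Jund in SP cells stood at 219 TPM or more in WT and at 192, 185 and 162 TPM in KO (log2 change -0.33, SE 0.131; limma adjusted p = 0.305).

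By count, 0 of 7 tested members were called by limma for KO against WT in TP cells (1 unadjusted), where 1.59% of all tested genes were called. In SP cells limma called 0 members (2 unadjusted) against 1.35%, and in TN cells 0 members (1 unadjusted) against 0.716%. When the 6 sorted groups were put in order of their mean, neighbouring groups overlapped for each of the 7 tested members. For Fos that order was WT TN (6.16 ± 1.89 TPM, SD, n = 3), WT SP (3.90 ± 1.2), KO TP (3.27 ± 1.4), KO SP (2.88 ± 2.66), KO TN (2.49 ± 1.93) and WT TP (2.11 ± 1.65). For Jun it was KO SP (9.55 ± 2.12 TPM), KO TN (7.71 ± 0.857), KO TP (7.59 ± 1.00), WT TP (6.40 ± 2.89), WT SP (4.78 ± 0.406) and WT TN (4.43 ± 1.38). The order of Fos placed WT TN and WT TP at opposite ends, whereas the order of Jun separated the genotypes.

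Of the immediate-early and handling-stress genes that are not members, 21 of 23 were tested in the sorted subsets. Dnajb1, which encodes an HSP40 chaperone, rose in KO cells of each subset, for example from 40.6 ± 5.57 to 91.8 ± 20.3 TPM (SD, n = 3) in SP cells (log2 change 1.15; limma adjusted p = 0.00957). In SP cells Egr1, Egr3 and Nr4a1, which respond to receptor signalling, fell in the KO: Egr1 went from 16.7 ± 3.23 to 2.51 ± 0.379 TPM (log2 change -2.33; limma adjusted p = 0.002). No other gene of this list was called between the sorted groups. None of 17 tested genes of other bZIP factors, 17 tested upstream kinases and regulators and 4 tested partners (IRF and NFAT genes) was called by limma in any comparison of the sorted cells; at an unadjusted p under 0.05 there were 0 to 3, 0 to 4 and 0 to 2 of them in the 11 comparisons.

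Within the groups of sorted cells few members moved together. Over the 18 sorted libraries, after the mean of each group was subtracted, the 21 pairs of tested members had a median Pearson r of -0.07 on log2(TPM + 1). A single pair exceeded 0.5: Jund and Atf3 with r = 0.80 (Spearman rho 0.76, n = 18). The cultures had fewer libraries, where a high r arises more easily, so their counts are not compared with that of the sorted cells. In the ionomycin table (n = 6) the median r was 0.04, and 10 of 36 pairs exceeded 0.5, among them Fos and Atf3 with r = 0.99. In the antibody table (n = 9) the median r was -0.04, and 7 of 36 pairs exceeded 0.5, among them Atf3 and Batf with r = 0.85. The genes whose deviations were most like those of Fos were Bak1 (r = 0.82), Cdr2 (0.81) and Pitpnb (0.80). For Jun they were Chid1 (0.89), Itsn1 (0.88) and Gpsm2 (0.84), and for Batf Prim2 (0.85), Mamdc2 (0.83) and Zfp60 (0.82). These are the highest of 12018 genes over libraries that share a preparation, and they are a description.

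Ionomycin, which raises intracellular calcium without engaging a receptor, was accompanied by a rise of Fosl2. Fosl2 stood at 210.1, 193 and 163 TPM with vehicle, against 728, 812 and 643 TPM with ionomycin. All 3 ionomycin libraries were above all 3 vehicle libraries, by 3.86-fold in the mean. The log2 change was 1.94 (SE 0.195; 95% interval 1.5 to 2.39; limma adjusted p = 0.00294). Fosl2 was the only member called (1 of 9, with 5 at an unadjusted p under 0.05); over all 14372 genes tested, limma called 2.91%, and 1.66% as higher. The call was lost without any 1 of the ionomycin libraries or without vehicle replicate 2 (limma adjusted p from 0.0629 to 0.0861), while the log2 change stayed between 1.84 and 2.03 without any single library. Without vehicle replicate 1, the library with the very high Ifng level, it was 2.02 (limma adjusted p = 0.0196).

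Fos shared the direction but not the call. It stood at 9.24, 31.2 and 26.9 TPM with vehicle, against 54.4, 74.6 and 48.0 TPM with ionomycin, without overlap (log2 change 1.49, SE 0.459; limma adjusted p = 0.149). Atf3 stood at 1.34, 6.65 and 5.40 TPM with vehicle, against 8.80, 11.1 and 8.22 TPM with ionomycin. For both genes vehicle replicate 1 was the lowest library. Groups without overlap were found for 20.1% of all genes tested with ionomycin. Fosb stayed at 7.67 TPM or less in all 6 libraries and overlapped between the groups.

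Batf, Maff and Junb had lower means with ionomycin. Batf stood at 78.4, 28.9 and 20.8 TPM with vehicle, against 5.53, 14.3 and 4.64 TPM with ionomycin (log2 change -2.17, SE 0.595; limma adjusted p = 0.108). The groups did not overlap, but vehicle replicate 1 lay far above the other vehicle libraries. Maff stood at 32.2, 25.1 and 31.1 TPM with vehicle, against 9.19, 11.6 and 14.2 TPM with ionomycin (log2 change -1.28, SE 0.353; limma adjusted p = 0.111), and here the vehicle libraries were close together. Junb stood at 301, 458 and 356 TPM with vehicle, against 246, 250.3 and 199.6 TPM with ionomycin (log2 change -0.66, SE 0.221; limma adjusted p = 0.186), also without overlap.

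Jun and Jund overlapped between the groups. Jun stood at 176, 185 and 64.9 TPM with vehicle, against 205, 155 and 161 TPM with ionomycin. Jund stood at 541, 695 and 266 TPM with vehicle, against 294, 346 and 262 TPM with ionomycin (log2 change -0.64, SE 0.337; limma adjusted p = 0.442). Vehicle replicate 3 was the lowest vehicle library for both. The median log2 change of the 9 members was -0.64, beside -0.00443 over all genes tested.

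Other values moved with the ionomycin groups. The number of genes above 0 ran from 15157 to 15483 with ionomycin and from 13904 to 14578 with vehicle. The summed NK markers (9 of 9 detected) ran from 4199 to 5885 TPM with ionomycin and from 7323 to 16336 TPM with vehicle. Summed T cell markers ran from 12.8 to 25.3 TPM with ionomycin and from 2.24 to 7.87 TPM with vehicle, with Cd4, Cd8a and Cd8b1 at 0 in all 6 libraries. Summed dendritic cell markers ran from 46.2 to 68.1 TPM and from 71.0 to 79.2 TPM, with Siglech and Xcr1 at 0 throughout. These 3 sums did not overlap between the groups. Neutrophil markers followed replicate 3 in both groups: they summed to 306 TPM in vehicle replicate 3 and to 119 TPM in ionomycin replicate 3, and to at most 2.19 TPM in the other libraries; Ly6g was at 0 in all 6. The part of these differences in the members' values was not tested.

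Among the partners and related genes, Irf4, whose product binds DNA with BATF and JUN proteins, rose with ionomycin: it was listed at 0 in all 3 vehicle libraries and stood at 38.3, 16.6 and 25.1 TPM with ionomycin (limma adjusted p = 0.00562). It was the only one of 5 partners called. Of 23 immediate-early genes, Ppp1r15a, which encodes the stress phosphatase subunit GADD34, rose from 101 ± 3.33 to 331 ± 48.1 TPM (SD, n = 3; limma adjusted p = 0.00517). Egr1 fell from 153 ± 43.3 to 55.3 ± 8.89 TPM (limma adjusted p = 0.03). Of 18 tested bZIP genes and 17 tested upstream genes, limma called none (3 and 5 at an unadjusted p under 0.05).

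**Figure D2:**
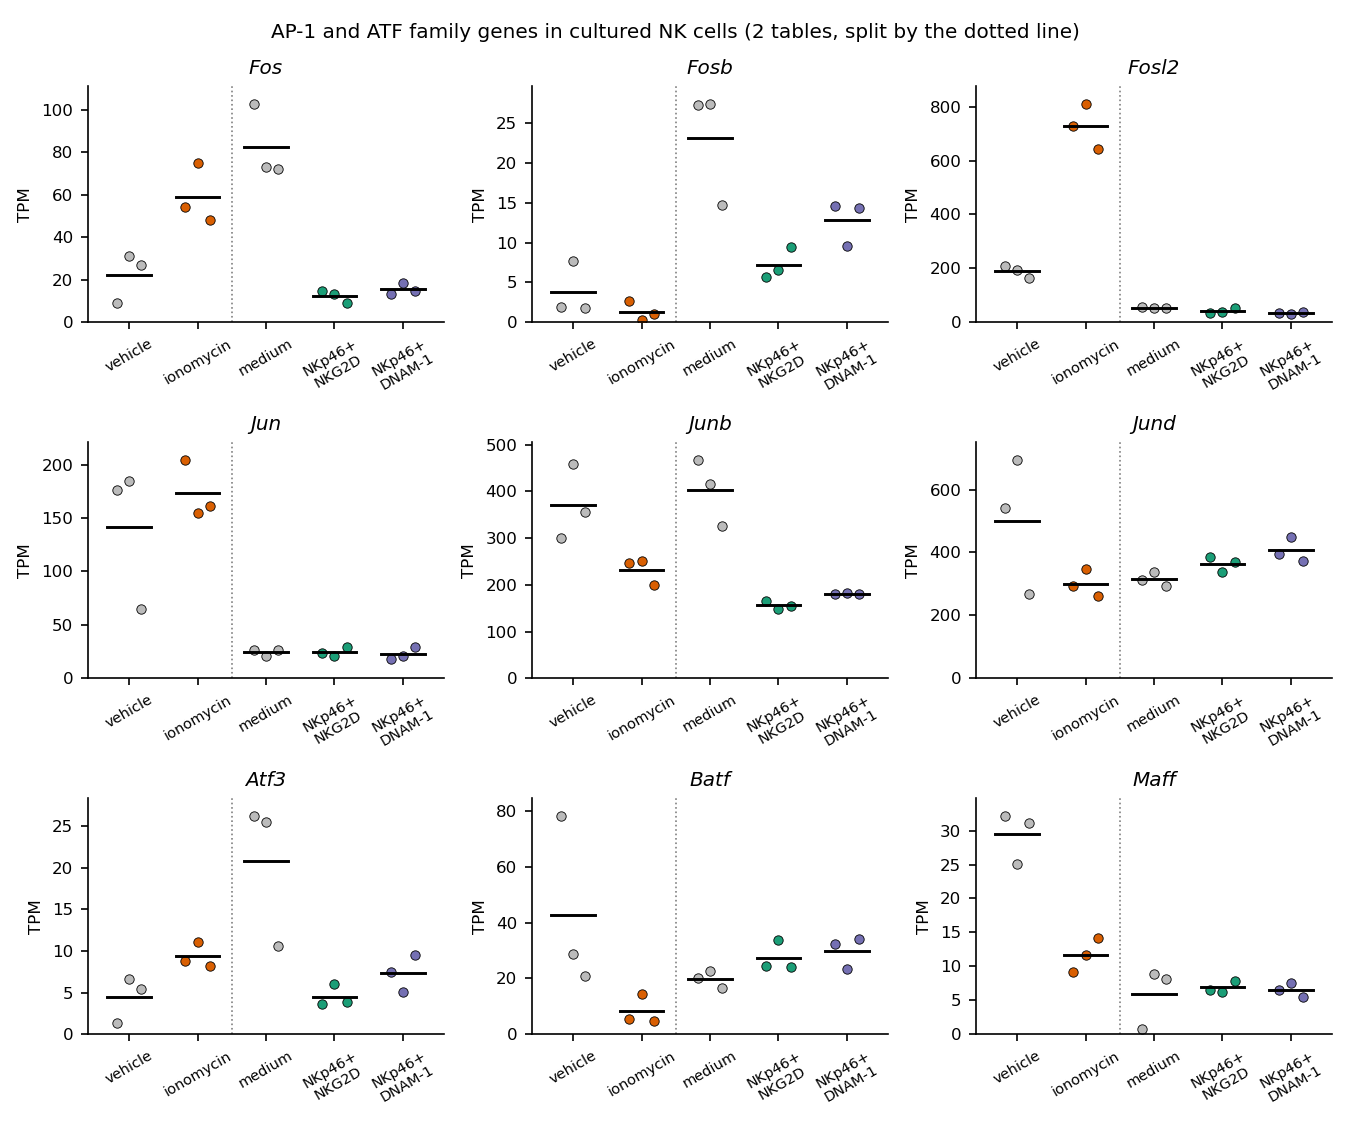
Each panel plots 1 gene, with TPM on a linear axis from 0; points are libraries and bars are means of 3, and the dotted line separates the ionomycin table from the antibody table, between which levels are not compared. The Fosl2 points with ionomycin reach 643 TPM or more and those with vehicle 210.1 TPM or less, and the Fos points with either antibody pair reach 18.2 TPM or less and those in medium 72.0 TPM or more.

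Stimulation with plate-bound antibodies for 48 h was accompanied by lower Fos and Junb than in medium. Fos, the prototypic immediate-early partner, stood at 103, 72.9 and 72.0 TPM in medium. It stood at 14.8, 13.4 and 9.10 TPM with the NKG2D pair, and at 13.2, 18.2 and 14.8 TPM with the DNAM-1 pair. Every medium library was above every stimulated library. The mean was 6.65-fold lower with the NKG2D pair (log2 change -2.64, SE 0.238; limma adjusted p = 0.000711) and 5.36-fold lower with the DNAM-1 pair (log2 change -2.34, SE 0.238; limma adjusted p = 0.00164).

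Junb, which encodes a JUN protein with weaker activating capacity than Jun, followed the same order of groups. It stood at 468, 417 and 327 TPM in medium, at 166, 148 and 156 TPM with the NKG2D pair, and at 181, 182 and 179 TPM with the DNAM-1 pair. Again no stimulated library reached the lowest medium library. The mean was 2.58-fold lower with the NKG2D pair (log2 change -1.35, SE 0.128; limma adjusted p = 0.000813) and 2.24-fold lower with the DNAM-1 pair (log2 change -1.14, SE 0.128; limma adjusted p = 0.00295).

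These were the only members called: 2 of 9 with the NKG2D pair, both lower (5 at an unadjusted p under 0.05), where limma called 0.431% of all 13689 genes tested and 0.278% as lower, and 2 of 9 with the DNAM-1 pair, both lower (7 unadjusted), where it called 0.782% and 0.497% as lower. Both comparisons use the same 3 medium libraries. When the samples were grouped by their titles, no member was called: the log2 changes of Fos were then -0.06 and -0.33, and those of Junb -0.11 and -0.21. Fitted with only medium and the DNAM-1 pair, Junb had a limma adjusted p of 0.0596. The number of genes above 0 also moved with the groups, from 13555 to 14674 in medium and from 16107 to 18096 with antibodies, and its part was not tested. Summed B and plasma cell markers ran from 183 to 223 TPM in medium and from 123 to 179.8 TPM with antibodies, without overlap; among these markers Cd79b, Igha and Ms4a1 were at 0 in all medium libraries and Igha in every library. Summed NK markers ran from 11584 to 12930 TPM in medium and from 12672 to 14762 TPM with antibodies, and the part of neither sum was tested. Groups without overlap were found for 17.3% of all genes tested with the NKG2D pair and for 21.1% with the DNAM-1 pair.

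Fosb and Atf3 had lower means in the stimulated groups without passing the test. Fosb stood at 27.4, 27.5 and 14.8 TPM in medium, at 5.67, 6.58 and 9.43 TPM with the NKG2D pair, and at 14.6, 9.56 and 14.4 TPM with the DNAM-1 pair. Its log2 change was -1.53 (SE 0.316; limma adjusted p = 0.0824) with the first pair and -0.78 (SE 0.316; limma adjusted p = 0.243) with the second. Medium replicate 3 was the lowest medium library and lay just above the values of the DNAM-1 pair.

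Atf3 stood at 26.3, 25.4 and 10.6 TPM in medium, at 3.69, 6.02 and 3.88 TPM with the NKG2D pair, and at 7.42, 5.03 and 9.49 TPM with the DNAM-1 pair. Its log2 change was -1.90 (SE 0.392; limma adjusted p = 0.0824) and -1.32 (SE 0.392; limma adjusted p = 0.135). Here too medium replicate 3 stood apart from the other medium libraries. Without it, limma called 4 members with the NKG2D pair, as Fosb (adjusted p = 0.0308) and Atf3 (adjusted p = 0.0239) joined Fos and Junb, and Atf3 reached an adjusted p of 0.0353 with the DNAM-1 pair.

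Fosl2 was lower by less. It stood at 56.9, 52.1 and 51.8 TPM in medium, at 33.0, 36.4 and 52.3 TPM with the NKG2D pair, and at 32.9, 32.3 and 38.3 TPM with the DNAM-1 pair. The first pair overlapped medium through its replicate 3 (log2 change -0.42; limma adjusted p = 0.328), and the second did not overlap it (log2 change -0.62; limma adjusted p = 0.137).

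Jund and Batf had higher means with both antibody pairs, uncalled. Jund stood at 313, 337 and 293 TPM in medium, at 385, 339 and 368 TPM with the NKG2D pair (log2 change 0.21; limma adjusted p = 0.355), and at 396, 451 and 373 TPM with the DNAM-1 pair (log2 change 0.37; limma adjusted p = 0.121). Batf stood at 19.99, 22.5 and 16.7 TPM in medium, at 24.6, 33.9 and 24.0 TPM with the NKG2D pair (log2 change 0.45; limma adjusted p = 0.373), and at 32.5, 23.4 and 34.1 TPM with the DNAM-1 pair (log2 change 0.57; limma adjusted p = 0.23). For both genes each stimulated library lay above each medium library, by narrow margins (339 against 337 TPM for Jund, 23.4 against 22.5 TPM for Batf).

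Jun and Maff overlapped between all 3 groups of the antibody table. Jun ran from 18.3 to 29.7 TPM over the 9 libraries. Maff ran from 5.55 to 8.93 TPM in 8 of the 9 libraries and stood at 0.74 TPM in medium replicate 1. The group means of Jun, from 22.6 to 24.5 TPM, differed by less than the SD of any group (3.11 to 5.53 TPM).

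**Figure D3:**
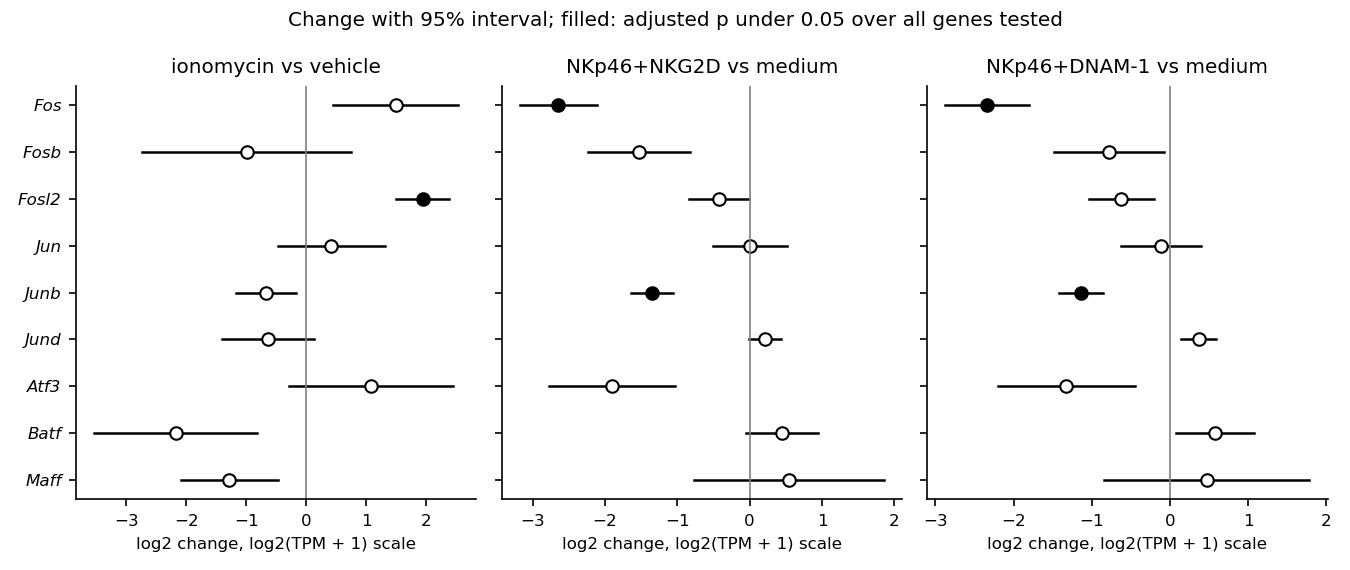
Each panel plots, for 1 comparison, the log2 change of each member on the log2(TPM + 1) scale with its 95% interval; filled points have an adjusted p under 0.05 over all genes tested. Fosl2 is filled at 1.94 with ionomycin, and Fos and Junb are filled below 0 with each antibody pair.

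No member passed the test between the antibody pairs. Limma called 0 of 9 members between them (1 at an unadjusted p under 0.05), and 0.0146% of all genes tested. The exception at the unadjusted level was Fosb, which stood higher in each library of the DNAM-1 pair (9.56 TPM or more) than in each library of the NKG2D pair (9.43 TPM or less), by a log2 difference of 0.75 (SE 0.316; 95% interval 0.05 to 1.46; limma adjusted p = 1); 7.42% of all genes tested were without overlap there. The absence of a call does not show that the pairs act alike.

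Other immediate-early genes stood lower in the stimulated cells as well. Limma called 9 of 21 tested genes as lower and 0 as higher in each comparison, with median log2 changes of -0.60 for the NKG2D pair and -0.54 for the DNAM-1 pair, beside -0.04 over all genes tested for each. Egr1 fell from 1836 ± 423 TPM in medium to 291 ± 50.1 TPM with the NKG2D pair and to 294 ± 48.6 TPM with the DNAM-1 pair (SD, n = 3; limma adjusted p = 0.000472 and 0.000519). Nr4a1, Egr2, Egr3, Zfp36 and Btg2 also fell in both; Zfp36, which encodes an RNA-decay factor, went from 364 ± 97.4 to 73.6 ± 12.0 and 83.6 ± 11.8 TPM. Of 18 tested bZIP genes, Atf4, an effector of the integrated stress response, fell with the DNAM-1 pair from 431 ± 56.9 to 279 ± 15.8 TPM (limma adjusted p = 0.0337), and limma called none with the NKG2D pair (4 unadjusted). None of the 17 upstream genes or 5 partners was called by limma in either comparison (3 and 1 unadjusted in each).

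The make-up of the FOS and JUN transcripts differed accordingly between medium and the stimulated groups. The sum of Fos, Fosb and Fosl2 was 159 ± 25.0 TPM (SD, n = 3) in medium, 60.2 ± 9.32 TPM with the NKG2D pair and 62.7 ± 4.09 TPM with the DNAM-1 pair. Fosl2 made up 34.0% ± 3.48 of that sum in medium, 66.7% ± 6.34 with the NKG2D pair and 54.9% ± 1.60 with the DNAM-1 pair. The share of Fos was 51.6% ± 3.6 in medium and 21.4% ± 7.68 and 24.7% ± 4.90 with the antibody pairs. The largest FOS gene by transcript was thus Fos in medium and Fosl2 in both stimulated groups.

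Among the JUN genes the sum changed less than the shares. It was 743 ± 85.2 TPM in medium, 545 ± 33.9 TPM with the NKG2D pair and 610.0 ± 37.9 TPM with the DNAM-1 pair. Junb made up 54.1% ± 3.71 of it in medium and 28.7% ± 0.545 and 29.7% ± 1.60 with antibodies, where Jund made up 66.8% ± 0.259 and 66.6% ± 2.39. With ionomycin, by contrast, Fosl2 already made up 87.7% ± 6.30 of the FOS sum with vehicle and 92.4% ± 0.738 with ionomycin, while the sum itself was 215 ± 20.7 and 788 ± 97.0 TPM. These shares follow from the gene values above and were not tested separately.

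**Figure D4:**
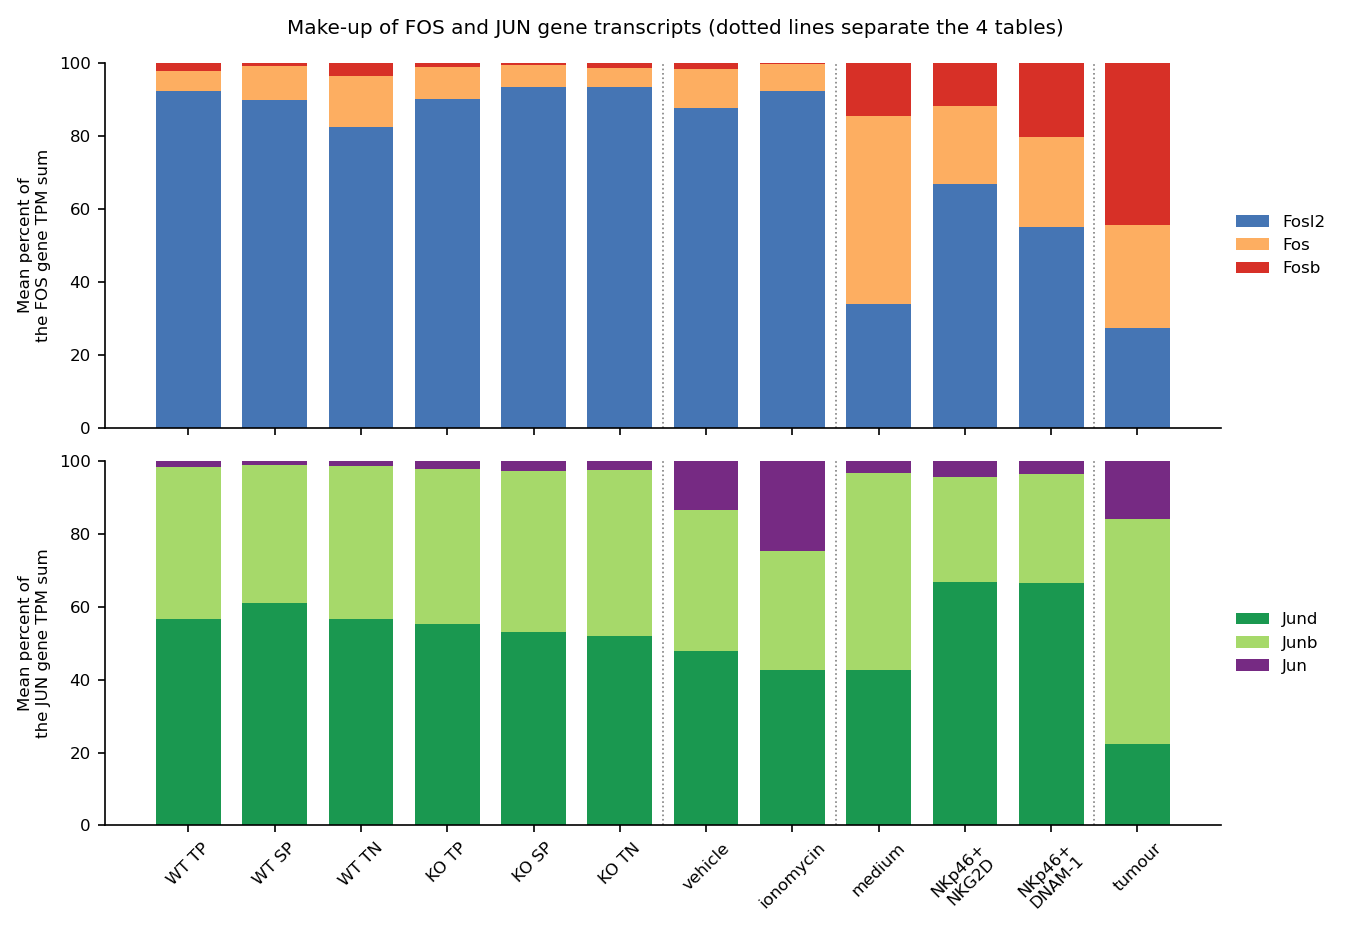
Stacked bars give the mean percent of the summed TPM of the 3 FOS genes (top) and of the 3 JUN genes (bottom) in each of the 12 groups of 3 libraries, and dotted lines separate the 4 tables. Fosl2 makes up over 80% of the FOS sum in the sorted and ionomycin tables, 34.0% in medium and 27.2% in tumours.

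In NK cells from B2m-/- MC38 tumours, Junb was the most abundant member and Batf the least abundant, and the other 7 lay between 78.9 and 706 TPM. Junb stood highest at 2201, 2000 and 1459 TPM, followed by Jund at 649, 683 and 701 TPM and Fosb, a FOS protein with a naturally truncated splice form, at 669.6, 641 and 635 TPM. Jun stood at 296, 438 and 706 TPM, Fos at 382, 399 and 463 TPM and Fosl2 at 529, 415 and 270.4 TPM. Jun, Fos and Fosl2 overlapped one another, while the Fosb libraries were close together (coefficient of variation 2.87%).

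The stress-responsive members Maff and Atf3 came next in the order of means, above Batf alone. Maff stood at 167, 178 and 151 TPM, Atf3 at 78.9, 80.1 and 289 TPM and Batf at 14.5, 13.8 and 11.8 TPM. Fosb made up 44.3% ± 2.01 of the FOS sum of 1467 ± 107 TPM (SD, n = 3), and Junb 61.6% ± 9.75 of the JUN sum of 3044 ± 156 TPM. No control was analysed beside the tumour libraries, so no test of these levels was possible, and levels are not compared with those of the other tables.

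Tumour replicate 3 stood apart in Atf3 (289 TPM) and had the highest Jun (706 TPM). It also had the highest Fos and Jund and the lowest Junb, Fosl2, Fosb, Maff and Batf. Some of these margins were narrow, such as 635 against 641 TPM for Fosb and 701 against 683 TPM for Jund. Across genes, replicate 3 correlated with replicate 2 at r = 0.844 and with replicate 1 at 0.808, and replicates 1 and 2 at 0.840. The heat shock genes Hspa1a and Hspa1b stood at 1933 and 3785 TPM in replicate 3, against 149 and 374 TPM in replicate 1 and 246 and 457 TPM in replicate 2. The summed immediate-early and handling-stress list (23 genes) ran from 11047 to 16709 TPM over the 3 libraries. In all 3, the summed macrophage markers (6 of 6 detected) ran from 18.8 to 65.7 TPM, and the 6 neutrophil markers were at 0. The tumour epithelium markers summed to 4.89 TPM or less, with Krt18 and Krt20 at 0. Summed red cell markers stood at 0, 209 and 335 TPM in replicates 1, 2 and 3, and summed dendritic cell markers at 36.2, 4.54 and 6.49 TPM. Summed B and plasma cell markers ran from 116 to 169 TPM and summed T cell markers from 4.42 to 14.0 TPM. The part of these genes and cells in the members' levels was not tested; without replicate 3, Atf3 stood at 78.9 and 80.1 TPM and Jun at 296 and 438 TPM.

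**Figure D5:**
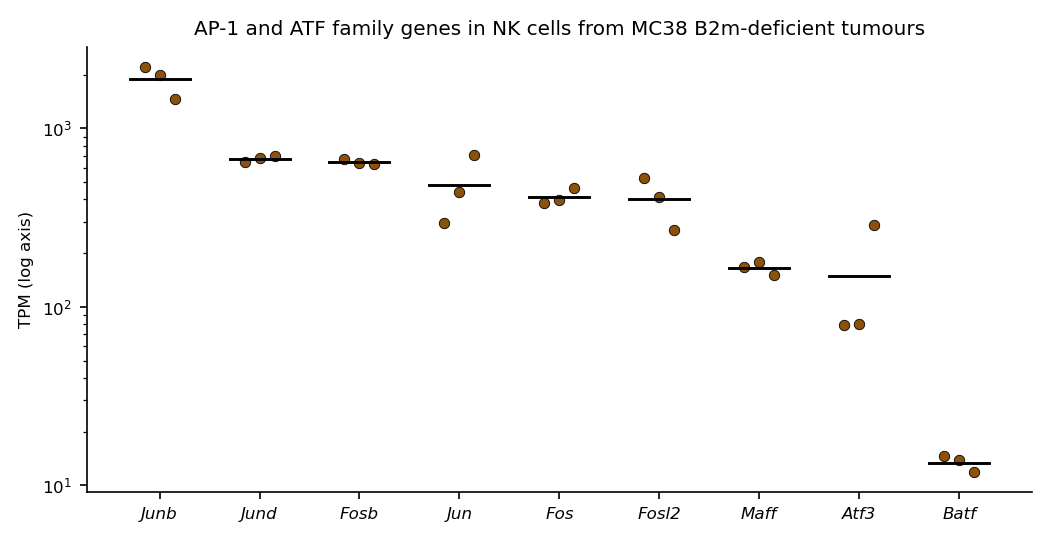
TPM of the 9 members in the 3 tumour libraries is plotted on a log axis, with genes ordered by mean; points are libraries from replicate 1 at the left to 3 at the right, and bars are means. Junb lies at 1459 TPM or more, Batf at 14.5 TPM or less, and the third Atf3 point lies at 289 TPM above the other two.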

How the data were processed

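The data are 36 RNA-seq libraries of mouse NK cells. Per the labels' protocols, total RNA of samples with a RIN score over 7 went into KAPA mRNA HyperPrep libraries. The authors deposited TPM values (transcript abundance scaled by gene length and library) in 4 tables; the submitters' processing notes name STAR, RSEM and GRCm39, without versions. Groups came from sample titles, and in the antibody table from the column names. The members and gene lists were chosen with earlier results of these data known.

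TPM are not counts and the depth per library is unknown. A gene was tested where its mean over a table reached 1 TPM, on log2(TPM + 1), a scale that understates changes of low genes. Limma 3.58.1 in R 4.3.3 fitted the group means of each table with an intensity trend; tests were two-sided, and p-values were Benjamini-Hochberg adjusted over all genes tested in each of 15 comparisons, called under 0.05. The fit recovered the direction of known changes in simulated data. Those changes were placed only in genes with a mean log2(TPM + 1) above 3. Fos, Jun and Atf3 of the sorted cells lay below that level, so the simulation does not show whether changes of such low members would be called. With 3 against 3 samples an exact permutation test cannot go below p = 0.1, so calls rest on the model. Intervals are 95% from the moderated fit. Named genes were all 9 members, called genes of the lists (at most 6 per list and comparison) and the 3 genes most correlated with Fos, Jun and Batf; log2 changes are printed mainly for members with an unadjusted p under 0.1. Alternatives were the pseudocount, filter, scaling, trend, samples in the fit, replicate block, title grouping and each replicate left out.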

Additional observations from a re-analysis of the deposited data

How the results depend on the processing

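In 15 comparisons the count of called members was recomputed under each alternative. With ionomycin it was 1, and 0 to 1 when single libraries were left out. With the NKG2D pair it was 2, 0 when grouped by sample title, and 2 to 4 when single libraries were left out. With the DNAM-1 pair it was 2, 1 with only the 2 compared groups in the fit, 0 by title, and 2 to 3 when single libraries were left out. The values by title were 0.0185 for Atf3 with the NKG2D pair, and 0.24 for Fosl2, -0.081 for Jund and -0.0709 for Batf with the DNAM-1 pair, all of the opposite sign to the column grouping. These 4 were the only reversals among 540 alternative values of 38 pairs of member and comparison. Only pairs with an unadjusted limma p under 0.1 as reported were followed. A stable sign was therefore likely from the start, and the count does not cover the other pairs. Which labels are right was not tested. Same-numbered libraries deviated together only weakly. The mean r was 0.0639 in the antibody table, 0.062 in the ionomycin table, 0.0203 in the KO and 0.000578 in the WT subsets. An r over 0.1 was found for 1 of 9 such pairs in the antibody table and 1 of 3 in the ionomycin table. In the subsets it was found for 0 of 9 in each genotype, so the numbers were not used as pairs. The column names carry these numbers in each group, and whether they mark the same mouse was not settled. With the replicate block, the count of called members was 2 and 2 for the antibody comparisons, 1 for ionomycin and 0 for each of the within-genotype subset comparisons, as without it; over all genes it rose from 59 to 239 and from 107 to 528 in the antibody comparisons. Unknown depth limits what can be said of members near 0 TPM.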
